A study of Mus musculus with 8 samples.

Results

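The 231 regions described here were open chromatin sites of mouse leukaemia cells that were called in every library up to 12h and in no library at 24h. They were found by merging the peaks of all 8 libraries on the 19 autosomes and X where they overlapped by 1 bp or more. Kept were the regions that both 0h, both 6h and both 12h libraries called and that no 24h library called, which gave 231 of 32720 merged regions. The members were therefore selected on the presence of a peak in each library, so the number of libraries with a peak and the loss at 24h are a description and not a finding.

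The assay was ATAC-seq, a method that uses a transposase to place sequencing adapters in open DNA. The cells were GFP-positive acute myeloid leukaemia cells from the bone marrow of leukaemic mice, driven by the fusion gene MLL-AF9 and carrying a doxycycline-inducible Klf4 construct (TetO-Klf4), labelled with the strain name C57BL/7. The times 0h, 6h, 12h and 24h formed 4 groups of 2 libraries each, and all of them carried the fusion and the construct. Whether doxycycline had been given at 0h, and whether the 2 libraries of a time came from separate mice, is not in the labels, so the spread between them may be technical.

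As background, open chromatin comprises promoters, where transcription starts, and distal sites, among them enhancers, which bind lineage and signal-dependent factors. Promoters of widely expressed genes are rich in CG pairs and usually open in every cell type, whereas distal sites differ more between cell states. KLF4 is a zinc-finger factor of the KLF/SP family, whose members bind GC boxes and CACCC boxes. In MLL-AF9 leukaemia the fusion keeps a stem-like programme active, with Hoxa9 and Meis1 among its known targets, while PU.1, C/EBP and RUNX factors set the myeloid identity of the cells.

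Sequence was at hand for the members that held a transcript start. A start of 47 promoters of 43 genes lay inside 38 members, and 27 of these members were within 1 kb of a gene end. A gene end is here either end of a protein-coding gene, where transcription starts or where it stops. In all, 39 members were within 1 kb of one, which can be an end of either kind. The promoters used lacked the starts of some genes, so a member without a start here can still be at a promoter. For the Lyn member, 6 bp from the gene end, the nearest start used lay 399452 bp away. The 6 sequences below are the 250 bases before the start, 5′ to 3′ on the gene's strand, from RefSeq on GRCm38.p6, the assembly also called mm10. They show the promoters of the 2 members with the strongest peaks at a gene end (Tmem231, a protein of the ciliary transition zone, and Castor2, of the arginine-sensing CASTOR family), 3 promoters with an ETS core (Mrps18a, a mitochondrial ribosomal protein, Prim1, the catalytic subunit of DNA primase, and Dock2, a Rac activator of blood cells) and 1 with a pair of GC boxes (Tmem150a, a membrane protein). Capitals mark matches to the KLF/SP GC box CCCCGCCC, the KLF/SP CACCC box CCACACCC, the ETS core CCGGAAG, the ETS motif with a PU.1 core GAGGAAGT and the RUNX motif TGTGGTT, on either strand.
Tmem231 (chr8:111933814-111934063, minus strand): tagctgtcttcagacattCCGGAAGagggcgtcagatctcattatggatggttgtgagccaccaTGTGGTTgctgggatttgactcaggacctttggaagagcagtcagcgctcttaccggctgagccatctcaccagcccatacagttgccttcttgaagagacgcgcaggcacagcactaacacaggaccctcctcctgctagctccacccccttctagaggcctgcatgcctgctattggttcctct
Castor2 (chr5:134099498-134099747, plus strand): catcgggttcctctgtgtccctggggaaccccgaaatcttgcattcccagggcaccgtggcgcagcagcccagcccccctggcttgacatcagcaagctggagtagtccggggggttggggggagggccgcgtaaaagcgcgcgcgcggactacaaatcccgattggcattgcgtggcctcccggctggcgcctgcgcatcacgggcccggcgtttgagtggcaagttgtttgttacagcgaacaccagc
Mrps18a (chr17:46110754-46111003, plus strand): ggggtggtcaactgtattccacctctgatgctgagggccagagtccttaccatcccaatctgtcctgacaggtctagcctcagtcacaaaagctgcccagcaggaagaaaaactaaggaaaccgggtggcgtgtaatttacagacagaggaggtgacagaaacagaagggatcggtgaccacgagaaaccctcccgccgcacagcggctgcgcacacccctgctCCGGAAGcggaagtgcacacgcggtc
Prim1 (chr10:128014965-128015214, plus strand): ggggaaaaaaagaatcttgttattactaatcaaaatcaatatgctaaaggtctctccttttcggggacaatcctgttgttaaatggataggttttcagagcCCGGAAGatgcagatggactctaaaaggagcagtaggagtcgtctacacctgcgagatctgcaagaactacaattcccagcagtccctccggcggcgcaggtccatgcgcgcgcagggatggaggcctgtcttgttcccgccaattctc
Dock2 (chr11:34783906-34784155, minus strand): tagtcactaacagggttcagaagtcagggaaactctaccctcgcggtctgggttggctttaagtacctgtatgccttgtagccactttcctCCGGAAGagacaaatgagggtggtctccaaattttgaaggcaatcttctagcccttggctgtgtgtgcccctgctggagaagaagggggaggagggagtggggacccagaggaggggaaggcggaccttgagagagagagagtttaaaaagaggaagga
Tmem150a (chr6:72355233-72355482, plus strand): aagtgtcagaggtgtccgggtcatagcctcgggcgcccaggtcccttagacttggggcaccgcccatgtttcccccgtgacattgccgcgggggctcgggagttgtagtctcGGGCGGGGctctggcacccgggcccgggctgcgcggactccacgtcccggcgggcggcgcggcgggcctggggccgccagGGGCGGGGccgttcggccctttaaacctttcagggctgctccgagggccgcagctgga

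In these sequences the Castor2 promoter held none of the 5 marked motifs. The promoters of Mrps18a, Prim1 and Dock2 each held 1 ETS core, and the Tmem231 promoter held 1 ETS core and 1 RUNX motif. Of the Prim1 sequence the last 124 bases lay inside the called region, and the ETS core lies before them. The Tmem150a promoter held 2 GC boxes and no ETS core. GC content ranged among the 6 from 49.2% in Prim1 to 72.8% in Tmem150a.

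The KLF/SP GC box was found in 6 of the 47 promoters with a start inside these regions, or 12.8% (Wilson 95% interval 5.99% to 25.2%). All 250 bases before each start were searched, and from 59 to 250 of them lay inside the called region. A match can thus lie outside the called region. It was found in 23.3% of 292 promoters in regions kept in only one 24h library, in 36.0% of 7676 promoters in regions called in all 8 libraries, and in 16.2% of all 32619 promoters of the table on these chromosomes. The share in these regions was thus below that in regions called throughout, and its interval covers that of all promoters. Median GC content was 57.2% in these regions, 57.4% in regions kept in one 24h library, 62.4% in regions called throughout and 52.4% in all promoters, and its part in the difference was not tested. The CACCC box was found in 0 of the 47 promoters, which allows a share of up to 7.56%, and in 3.47% of promoters in regions called throughout. All intervals on shares cover counting error only, and promoters that share a region are not independent.

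The ETS core was found in 10 of the 47 promoters, or 21.3% (12.0% to 34.9%), against 18.3% in regions called throughout and 6.96% of all promoters. The E-box CAGCTG was found in 9, or 19.1% (10.4% to 32.5%), against 10.2% in regions called throughout and 13.1% of all promoters. The AP-1 motif TGANTCA, where N is any base, was found in 5, or 10.6% (4.63% to 22.6%), against 2.85% in regions called throughout and 6.78% of all promoters. A core of the CTCF motif, CNAGNNGGC, was found in 14, or 29.8% (18.6% to 44.0%), against 26.3% in regions called throughout and 17.1% of all promoters. In regions kept in one 24h library the shares were 13.4% for the ETS core, 5.48% for both the E-box and AP-1, and 17.1% for CTCF. The intervals in these regions were wide, and for the ETS core and CTCF they cover the share in regions called throughout. Both promoters of Gm26564 and that of Tspyl4, each with an E-box, lay at the same region. So did the promoters of Spata17 and Gpatch2, each with an ETS core. Matches were counted per promoter, and the intervals do not allow for such sharing. A stretch that matches the CTCF core can also hold the E-box, but none of the 47 promoters held both. The other motifs searched (RUNX, C/EBP, GATA, IRF, MYB, MEIS, HOXA9, CRE and the PU.1-type ETS motif, by name alone) each matched 0 to 3 of the 47 promoters, except MYB. It matched 13, or 27.7%, against 28.9% in regions called throughout and 27.5% of all promoters. A match is a description of these letters and not of a bound factor.

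**Figure D1:**
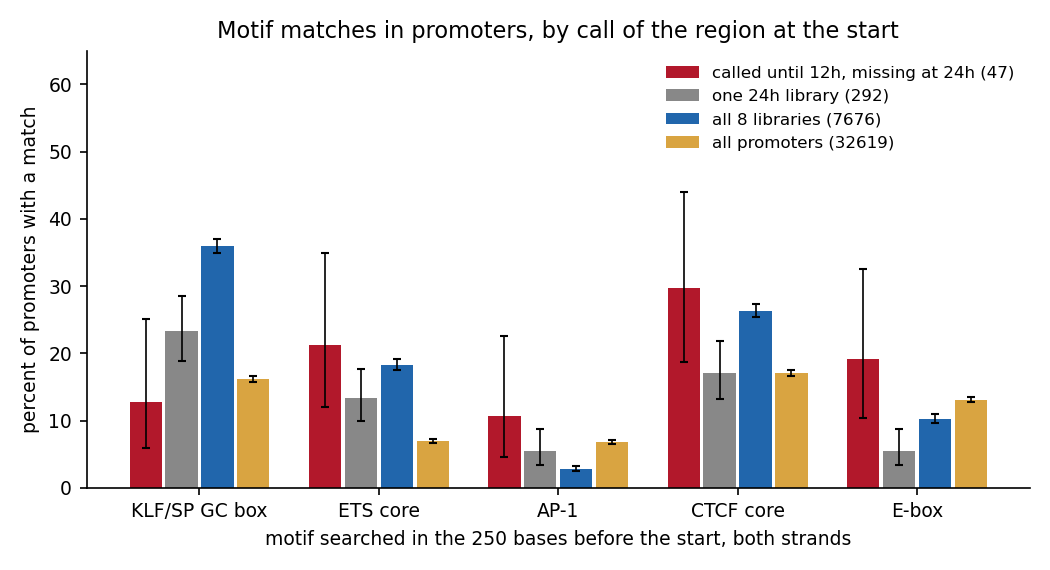
Percent of promoters (vertical axis) with a match to each of 5 motifs, for promoters in regions called until 12h and missing at 24h (47), in regions kept in one 24h library (292), in regions called in all 8 libraries (7676) and for all promoters (32619). Bars are shares and lines are Wilson 95% intervals, and the GC box stood at 12.8% in the first class and at 36.0% in regions called in all 8 libraries.

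Peaks per list, library by library, numbered 21756 and 15638 for 0h, 17324 and 18068 for 6h, 21895 and 19722 for 12h, 15104 and 14822 for 24h. Total reads were not used here. A depth index came from the authors' values instead: the lowest local background of a list, in tags per kb, was 2.67 and 1.5 for 0h, 2.35 and 2.58 for 6h, 2.63 and 2.23 for 12h, 2.30 and 2.37 for 24h. The 24h lists were thus the shortest, with a background inside the range of the 6h and 12h lists (2.23 to 2.63), and the second 0h library was the shallowest. The myeloid factors Spi1 and Cebpa, the fusion targets Meis1 and Hoxa9, and Klf4 had a peak in or near the gene in all 8 libraries. The number of such peaks varied. At Meis1 it was 11 and 6 for 0h, 6 and 6 for 6h, 6 and 7 for 12h, and 4 and 3 for 24h. At Hoxa9 it was 5 and 4, 4 and 7, 4 and 5, and 2 and 4 in that order. At Spi1, Cebpa and Klf4 it was between 1 and 3 in every library. The progenitor and myeloid genes Mpo, Kit and Itgam had one in 4, 5 and 5 libraries, and the macrophage receptor gene Csf1r in 1.

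The 231 members made up 2.25% of the 10267 regions that were called in all 6 earlier libraries. Another 868 such regions were kept in one 24h library, 425 in the first and 443 in the second, and 9168 were called in all 8. The same count for the other times gave 88 regions missing from 0h only (0.862% of 10209), 54 from 6h only (0.562% of 9611) and 11 from 12h only (0.118% of 9296). In the lists as deposited, 24h therefore had the highest count of regions missing from a single time. With every list shortened to its 14822 strongest peaks, the counts were 105 (0h), 58 (6h), 35 (12h) and 84 (24h). The count at 24h was then below that at 0h, and 83 of the 231 regions still met the rule. With lists as deposited, 417 regions met it without the second 0h library, 347 without the second 6h library, 657 without the first 24h library and 673 without the second. The part of the shorter 24h lists was not tested beyond this. In bulk libraries, fewer cells with an open site and less accessibility in each cell cannot be told apart.

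**Figure D2:**
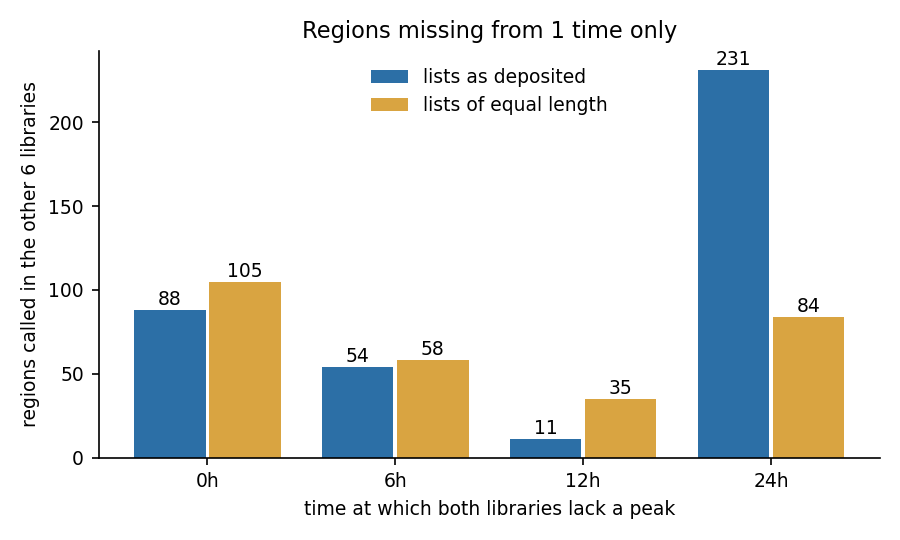
Number of regions called in the other 6 libraries and in neither library of the time on the horizontal axis, with lists as deposited (blue) and lists of equal length (yellow). At 24h the count was 231 with deposited lists and 84 with lists of equal length, against 88 and 105 at 0h.

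Loss between 0h and 24h took several patterns of calls, of which the members' was 1. Of 1450 regions with a peak in both 0h libraries and in neither 24h library, 231 were called in all 4 libraries of 6h and 12h, 325 in 3, 379 in 2, 315 in 1 and 200 in none. A further 542 regions came within 1 library of membership, with a peak in 5 of the 6 earlier libraries and none at 24h. The missing library was the second 0h library, the shallowest, in 186 of them, and the first 0h library in 31.

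The members were weak peaks among those shared by all earlier libraries. Their median fold enrichment, which the authors gave as summit pile-up relative to local background, was 7.65 and 6.50 for 0h, 6.87 and 6.79 for 6h, 7.68 and 7.44 for 12h. Regions called in all 8 libraries had medians of 10.6 and 9.26 for 0h, 10.4 and 10.5 for 6h, 11.1 and 10.8 for 12h. Since folds depend on depth, each peak was also ranked within its own list. The members' median percentile was 48.5 and 33.5 for 0h, 34.0 and 34.3 for 6h, 43.5 and 40.2 for 12h, while that of regions called throughout lay between 67.6 and 77.2 in all 8 libraries. Members thus ranked near or below the middle of every list.

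With the 10267 common regions divided into 4 classes of about equal size by mean percentile, 192 of the 231 members lay in the weakest class, 36 in the next, 3 in the one above and 0 in the strongest. They made up 7.48% of the weakest class and 1.40% of the next. The median number of tags at a member's summit was 14 and 8 for 0h, 10 and 11 for 6h, 13 and 12 for 12h, against 31 and 14, 21 and 22, and 29 and 26 in regions called throughout. Scaled by the background of each list, the members' earlier pile-ups corresponded to a median of 11.2 and 11.9 tags in the 2 24h libraries, where a median of 6 tags would have been callable. The rule required a call in all 6 earlier libraries, so that pile-ups above the callable number follow from the choice of members. Regions called throughout had a median pile-up over the lowest background of the list of 59.6 and 59.1 at 24h, against 62.8 and 74.6 for 0h, 61.3 and 58.3 for 6h, 69.7 and 72.5 for 12h. By this measure the peaks that stayed were about as high over background at 24h as at 6h, and lower than at 12h.

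**Figure D3:**
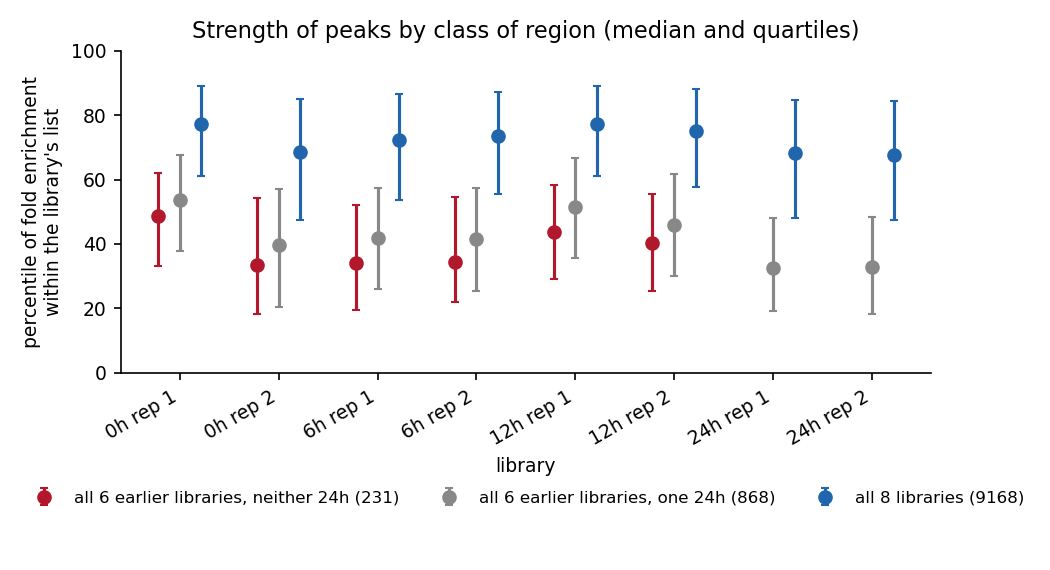
Percentile of fold enrichment within each library's own list (vertical axis) in the 8 libraries, for the 231 regions missing at 24h (red), the 868 kept in one 24h library (grey) and the 9168 called in all 8 (blue). Points are medians and lines run between the quartiles, and the red medians lie between 33.5 and 48.5, below the blue ones in each of the 6 libraries.

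Ranked among the common regions alone, members stood somewhat higher at 0h than later. Their median percentile in that ranking was 15.9 and 16.7 for 0h, 12.3 and 11.4 for 6h, 12.9 and 13.3 for 12h, with both 0h medians above the other 4. At 6h, 24 members ranked higher in both libraries than in both at 0h, or 10.4% against a background of 16.3% of common regions, and 48 ranked lower in both, or 20.8% against 15.9%. At 12h, 44 ranked higher than in both 6h libraries (19.05% against 17.3%) and 36 lower (15.6% against 19.7%). Set against 0h, 34 ranked higher at 12h (14.7% against 16.0%) and 58 lower (25.1% against 17.1%). Most members therefore overlapped between the times compared, and the share lower at 12h than at 0h was above its background. This ranking uses the same peaks as the rule, which required all 6 to be called, so the shares are a description.

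Members lay far from gene ends more often than the sites that stayed open, a difference between classes of regions that is described here without a test. A summit within 1 kb of an end of a protein-coding gene was found in 39 members, or 16.9% (Wilson 95% interval 12.6% to 22.3%), against 32.6% of regions kept in one 24h library, 66.8% of regions called throughout and 30.5% of all regions. A summit inside a protein-coding gene was found in 59.3% of members and 53.8% of regions called throughout. Of the members away from gene ends, 111 lay inside a gene and 81 between genes, and for 38 the nearest gene end was over 100 kb away. The median distance to a gene end was 16.6 kb for members, 8.05 kb for regions kept in one 24h library, 0.154 kb for regions called throughout and 7.75 kb for all regions. Within the weakest of the 4 classes of common regions, 15.6% of 192 members and 43.4% of 1772 regions called throughout were within 1 kb of a gene end. That class spanned mean percentiles from 0.01 to 53.1, so strength was not matched within it. The part of strength in the difference was not tested. Without the first or the second 24h library, the share of members near a gene end was 26.9% or 27.2%. Taken the other way, 39 of 6442 common regions at gene ends (0.605%) and 192 of 3825 elsewhere (5.02%) were members.

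**Figure D4:**
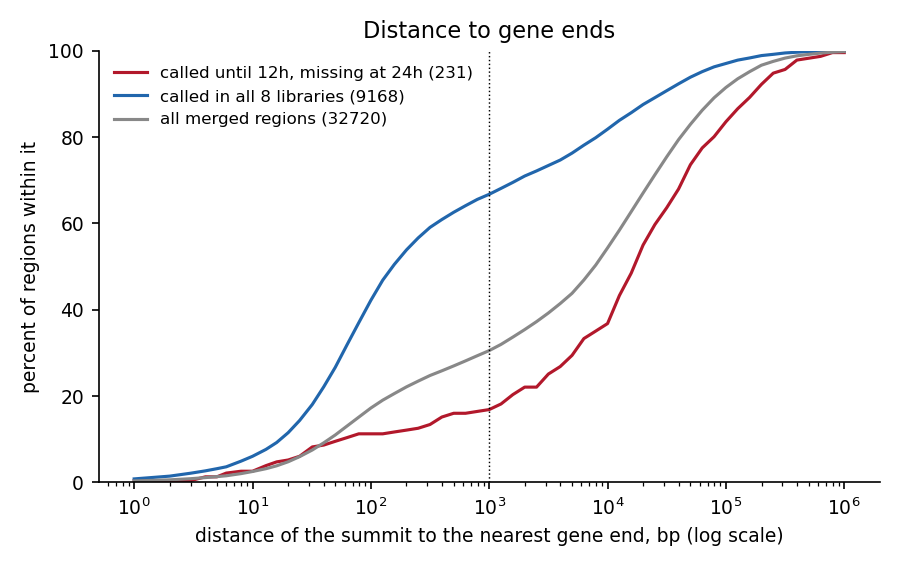
Percent of regions (vertical axis) whose summit lies within a given distance of the nearest gene end (horizontal axis, bp, log scale), for members (red), regions called in all 8 libraries (blue) and all merged regions (grey). At 1 kb, the dotted line, the shares are 16.9%, 66.8% and 30.5% in that order.

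Members were scattered along the chromosomes. The nearest region called in both 24h libraries was a median of 40.0 kb away, within 10 kb for 32 members and within 1 kb for 2. The nearest other member was a median of 3991 kb away, and 12 members had another within 100 kb. Merged regions were 543 bp wide at the median for members and 771 bp for regions called throughout. By chromosome, members made up between 0.763% of common regions on chromosome 11 (6 of 786) and 3.95% on chromosome 6 (20 of 506).

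The 12 members with the highest mean percentile over the 6 earlier libraries are named next, with folds in the order 0h, 6h and 12h, 2 libraries each. Since folds depend on depth, times are called higher, lower or overlapping here by the percentile of the peak within each list. The strongest lay between genes at chr1:144330410-144330873, with the nearest gene end, 81.5 kb away, that of Rgs1, which dampens signals of chemokine receptors in immune cells. Its folds were 11.0 and 10.8, 10.3 and 10.1, and 11.3 and 12.9. All 6 peaks had more than 10-fold enrichment, the 6h pair ranked lowest, and it was the only region assigned to Rgs1 in any library. The next, 14 bp from Tmem231 (chr8:111933542-111934069), had folds of 8.83 and 9.96, 6.87 and 12.7, and 14.0 and 12.7. The 12h pair ranked highest, and the 6h libraries lay far apart. The member inside Tafa4, which encodes a secreted chemokine-like protein (chr6:97016044-97016461, 44.2 kb from its end), had folds of 9.98 and 10.9, 10.8 and 10.4, and 10.2 and 9.10, with the 12h pair ranking below the others.

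The member 6.24 kb from Rab38, a small GTPase of melanosome traffic (chr7:88423954-88424253), had folds of 10.9 and 8.51, 10.8 and 9.88, and 10.2 and 8.62. The times overlapped. The member at Castor2 (chr5:134099272-134099988, 18 bp from the gene end) had folds of 9.33 and 7.62, 9.66 and 10.1, and 12.1 and 10.5. The 12h pair ranked above the other 4, which overlapped. The member inside Baiap3, a secretory vesicle gene, with Tsr3, an 18S rRNA modifying enzyme, as the nearest gene end at 5.39 kb (chr17:25247886-25248609), had folds of 10.6 and 7.74, 7.96 and 8.68, and 12.8 and 10.0. The 6h pair lay below the 12h pair.

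At the next members the 0h values were high or the 12h values low. The member inside Gxylt1, which extends O-glucose sugars on Notch repeats (chr15:93260058-93260414), had folds of 11.8 and 9.55, 10.3 and 10.3, and 6.44 and 8.41, so that both 12h values were below all others. The member inside Bsn, the gene of the presynaptic protein bassoon (chr9:108120671-108121035), had folds of 13.0 and 11.2, 8.52 and 7.08, and 7.17 and 10.0, with the 0h pair above the rest. An intergenic site 177 kb from Elac2, a tRNA-processing nuclease (chr11:64801410-64801763), had folds of 13.1 and 9.55, 9.21 and 7.76, and 9.11 and 8.49, again with 0h highest. The remaining 3 were an intergenic site 659.5 kb from the cadherin gene Cdh10 (chr15:19675647-19676039, folds 6.62 to 11.3), 1 inside the endocytic scaffold gene Itsn1 (chr16:91825820-91826366, 7.18 to 12.9) and 1 at Fan1, below. The times overlapped at both Cdh10 and Itsn1.

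**Figure D5:**
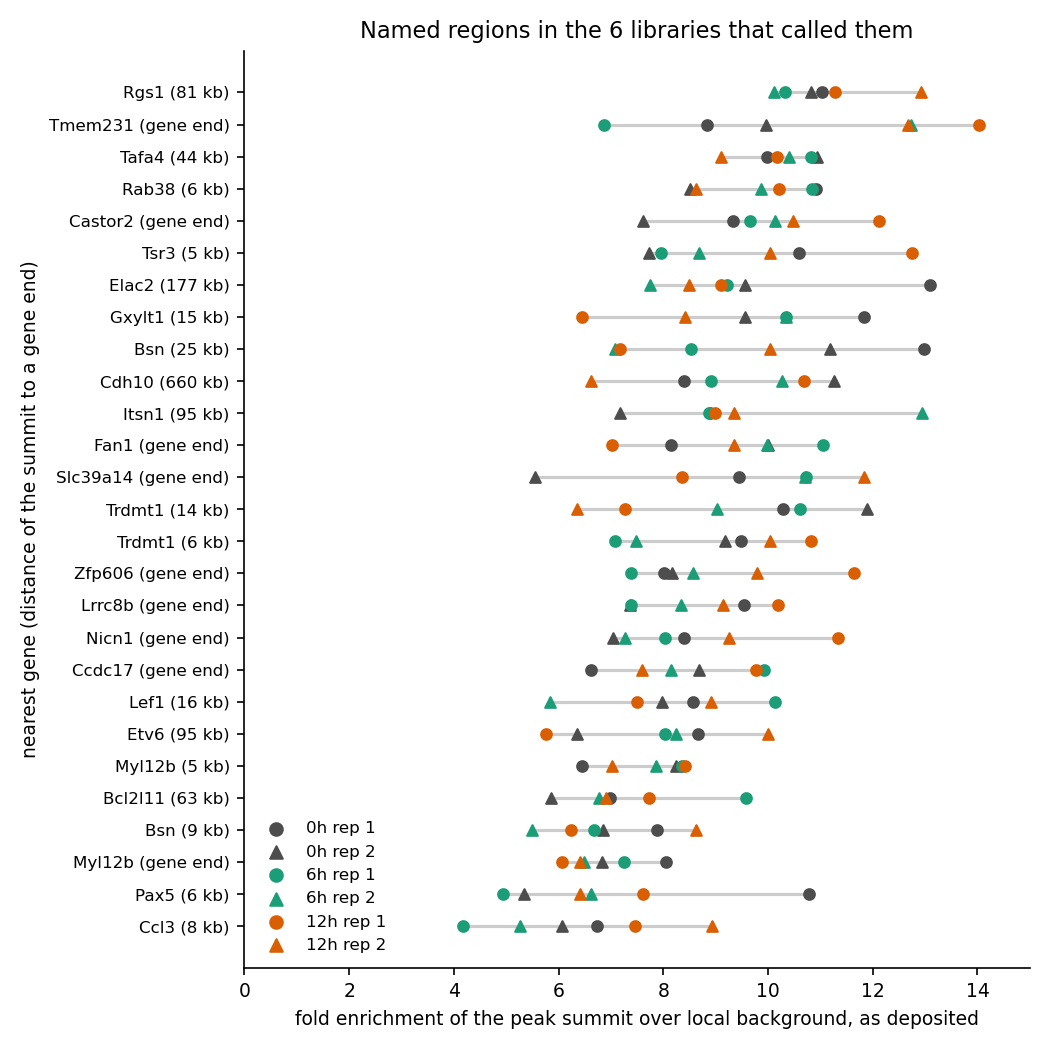
Fold enrichment as deposited (horizontal axis) of the named members, leaving out the 4 just inside the calling limit, in the 6 libraries that called them, 1 row per region with its nearest gene and the distance to a gene end. Colours are times and shapes are libraries, and the Rgs1 site has all 6 points above 10, while the lowest point drawn, 4.18, belongs to the Ccl3 site.

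At gene ends, the 8 strongest members were those of Tmem231, Castor2, Fan1, Slc39a14, Zfp606, Lrrc8b, Nicn1 and Ccdc17. Fan1 encodes a nuclease that repairs DNA crosslinks, and its member (chr7:64373849-64374199) had folds of 8.14 and 10.0, 11.1 and 9.97, and 7.02 and 9.36. The 6h pair lay above the 12h pair. The member 12 bp from Slc39a14, a zinc importer (chr14:70351098-70351685), had folds of 9.45 and 5.56, 10.7 and 10.7, and 8.36 and 11.8, and the second 0h library was the lowest. The member at Nicn1, part of a tubulin-modifying complex (chr9:108290259-108290582), had folds of 8.40 and 7.04, 8.03 and 7.28, and 11.3 and 9.25. Its 12h pair lay above the other 4 values. The members at Zfp606, a zinc-finger gene, Lrrc8b, a subunit of volume-regulated anion channels, and Ccdc17 had folds between 6.62 and 11.7.

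A few more gene-end members are named for what their genes do, with no count of such genes over all gene ends. Lyn encodes a Src-family kinase of myeloid and B cells, and its member (chr4:3677841-3678639, 6 bp from the gene end) had folds of 5.37 and 5.15, 4.83 and 9.48, and 7.95 and 7.37, with the libraries of 6h far apart. That at Dock2 (chr11:34782628-34784139, 8 bp) had folds of 6.22 and 8.21, 4.86 and 5.46, and 6.79 and 5.95, with the 6h pair lowest. That at Irak3, a brake on Toll-like receptor signalling (chr10:120140768-120141797), had folds of 7.09 and 5.92, 5.98 and 5.40, and 8.31 and 12.1, with the 12h pair above the rest. Among the promoters used, the nearest transcript start lay 28338 bp from the Irak3 member. Another region at an end of Irak3 was called in both 24h libraries. The members at the kinase gene Lrrk2 and the interferon-inducible ligase gene Herc6 had folds between 5.20 and 8.59.

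Others lay at Mrps18a and Mrps25 of the mitochondrial ribosome, Tmem70 of ATP synthase assembly, the RNA-modifying enzymes Trmt44 and Cdk5rap1, Prim1, the mRNA-decapping scaffold Edc4, and Cops6 of the COP9 signalosome. At Prim1 (chr10:128015091-128015453, 4 bp from the gene end) the folds were 7.78 and 6.53, 8.33 and 7.26, and 7.02 and 6.34, with the 12h pair below the 6h pair. At Mrps18a (chr17:46110765-46111234) they were 9.32 and 5.95, 8.63 and 7.25, and 9.11 and 6.31, with overlapping times. Transporter genes were Slc39a14, Slc35a3, Slc35b4 and the drug-efflux pump gene Abcb1b, and lipid genes were Angptl4, Plpp6 and Pafah1b3. The Slc35b4 member lay 20811 bp from the nearest transcript start among the promoters used. Another region at an end of Slc35b4 was called in both 24h libraries. The member at Cops6 lay 4273 to 4689 bp from the microRNA genes Mir25, Mir93 and Mir106b, a cluster hosted by Mcm7. Of the 39 gene-end members, 12 still met the rule with lists of equal length, among them Tmem231, Castor2 and Nicn1, while Lyn, Dock2, Irak3 and Prim1 did not.

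Members were assigned to 190 genes, or 1.39% of the 13703 genes with any region within 100 kb, and 107 of the 190 (56.3%) had another region that both 24h libraries called. Of all 13703 genes, 67.0% had a region called in both. For 151 genes all members were over 1 kb from a gene end, and 96 of them had another region called in both 24h libraries. Some members of this class still held a transcript start, as at Tgif1 and Stx18. Of the 39 genes with a member at a gene end, 11 had another region called in both 24h libraries. The rule itself takes away a called region from each gene with a member, so these counts are a description.

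The genes with more than 1 member were Trdmt1, Bsn and Myl12b, with 2 each. Trdmt1 encodes an RNA methyltransferase that modifies tRNA. Its member beyond the gene (chr2:13558635-13559087) had folds of 10.3 and 11.9, 10.6 and 9.03, and 7.28 and 6.36, so both 12h values were the lowest, while its member inside the gene (chr2:13537940-13538873) had folds of 9.48 and 9.19, 7.08 and 7.48, and 10.8 and 10.0, with 12h highest. The 2 members assigned to Trdmt1 thus ran in opposite order between 0h and 12h. The member beyond the gene lay 13.95 kb from the Trdmt1 end and held a transcript start of Gm9875. Gm9875 was not among the protein-coding genes used for assignment, so the 2 members need not belong to the same gene. The weaker Bsn member (chr9:108104721-108105453) had folds between 5.49 and 8.62. At Myl12b, a regulatory light chain of myosin, the folds lay between 6.07 and 8.42.

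Of 14 lists of genes for this leukaemia, 256 genes in all, 218 had any region and 6 had a member, or 2.75% against 1.39% of all genes. Counted by region, 6 of the 188 common regions of listed genes were members, against 231 of all 10267 (2.25%). Genes differ in their number of regions, so the shares per gene are not a like comparison. No gene of the MLL-AF9 self-renewal list had one (0 of 24 genes with a region, which had 25 common regions among them). None of the KLF and SP family had one (0 of 19 genes, 22 common regions), Klf4 included. The lists of cell cycle genes (0 of 25, 29 common regions) and granulocyte genes (0 of 15, 4 common regions) had none either. Nor did cytokine receptors and kinase signalling (0 of 22, 22 common regions). With 2.25% of all common regions being members, a count of 0 among so few regions does not set a list apart. The number of listed genes was 12 without the second 0h library, 11 without the first 6h library, 18 without the second 24h library, and 3 with lists of equal length. The 6 genes were Etv6, Ccl3, Rgs1, Bcl2l11, Pax5 and Lef1.

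Etv6 encodes an ETS repressor needed by blood stem cells. Its member lay in the gene, 95.3 kb from an end (chr6:134130842-134131109), with folds of 8.66 and 6.35, 8.03 and 8.24, and 5.76 and 9.99, and the 12h libraries held both the lowest and the highest value. Etv6 had 15 regions, of which 2 were called in both 24h libraries. Bcl2l11 encodes the pro-apoptotic protein BIM, and its member lay 63.1 kb away inside the neighbouring gene Acoxl (chr2:128062735-128063324). Its folds were 6.99 and 5.85, 9.59 and 6.76, and 7.72 and 6.91, with overlapping times, and a region at a gene end of Bcl2l11 was called in both 24h libraries. Ccl3, a chemokine of activated macrophages, had its member 7.51 kb away (chr11:83639719-83640643), with folds of 6.74 and 6.06, 4.18 and 5.26, and 7.46 and 8.92. There the 6h pair was lowest and the 12h pair highest.

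The members of Pax5 and Lef1 lay in genes that mark lymphoid cells. Pax5 sets B-cell identity, and its member inside the gene (chr4:44704408-44704707) had folds of 10.8 and 5.33, 4.95 and 6.62, and 7.61 and 6.42, with the first 0h library far above the others. Lef1 is a WNT-responsive factor of T cells and progenitors, and its member (chr3:131208458-131209141) had folds of 8.56 and 7.98, 10.1 and 5.84, and 7.50 and 8.91, with overlapping times. Beside these results, each 24h library had a peak in or within 10 kb of 4 of 11 B-cell markers, not all the same ones. In the earlier libraries it was 6 to 8 of 11. For T and NK markers it was 6 and 7 of 15 at 24h against 6 to 10 earlier. Among defining B-cell markers, Ms4a1 had no peak in any library and Cd79a had one in all 8. Cd8a and Ncr1 had none, and Cd3d and Cd3g had one in all 8. Markers of stroma and endothelium had a peak for 2 and 4 of 12 at 24h and for 4 to 8 earlier. For erythroid markers it was 3 and 4 of 10 at 24h against 3 to 5, and for megakaryocyte markers 3 and 4 of 10 against 4 to 6. Of the myeloid lists, monocyte and macrophage genes had a peak for 15 and 11 of 30 at 24h against 16 to 24 earlier. Granulocyte genes had one for 10 and 10 of 20 at 24h against 9 to 13. The 24h lists were also the shortest. The part of these markers and myeloid genes in the result was not tested.

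The rule rests on the authors' limit for calling a peak, a −log10 q of about 2. Just inside it, by the lowest −log10 q among the 6 earlier libraries, were members in Col18a1 (2.05), Wipf1 (2.12) and Rab20 (2.14) and near Diras2 (2.14). Just outside it were regions that were members but for a peak in the second 24h library, near Dop1b (2.16), at Zc3hav1l (2.23), near Gm6721 (2.47) and near Rnf152 (2.61). These 8 regions were picked as the nearest to the limit and are not typical of the members.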

How the data were processed

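ATAC-seq of 8 libraries was deposited as 1 peak list per library. Per the submitters' processing notes, BWA, SAMtools, MACS2 and the mm10 build were used (versions and settings: not given in the sources used here). Peaks were called by the authors per library, not on pooled libraries, and whether reads were shifted for the transposase or duplicates removed is not stated. Each peak has a fold enrichment deposited by the authors, a ratio of summit pile-up to local background each raised by 1. The authors also deposited its −log10 q-value, its −log10 p-value and its summit position, and a score that was not used.

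From these, peaks were merged at 1 bp overlap with Python 3.11.15, numpy 2.4.6, pandas 2.3.3 and scipy 1.17.1, and figures drawn with matplotlib 3.10.9. The scripts were tested on simulated data. Fold and −log10 p together gave the whole-number pile-up and background of 99.8% to 99.9% of peaks (tolerance 0.001 on the −log10 scale). Folds were used to describe and rank peaks within a list, and libraries were ordered at a region by the percentile of its peak within each list. Regions were assigned to the protein-coding gene with the nearest end within 100 kb, from a RefSeq table of GRCm38.p6. Promoters on chromosome 18 were not used, and the promoters used lacked some genes of other chromosomes, Lyn among them. Samples were grouped by the time in their labels. No p-value is given, since the members were chosen by the measured calls and each time had 2 libraries. The members and gene lists were chosen with earlier results of these data known. Named regions were the 12 members of highest mean percentile, the 8 highest at a gene end, genes with 2 or more members, listed genes, and 4 regions on each side of the limit. A marker gene of the lists is not reported here. Other gene-end members are named for their function, after their values were seen. Alternatives were a stricter q, equal list length, other merging and distance rules, each library left out, and the replicate number as a block.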

Additional observations from a re-analysis of the deposited data

How the results depend on the processing

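The number of members depended on the lists. It was 193 with peaks of −log10 q of at least 5, 217 with a 50% cover rule and 231 with fixed windows. It moved to 84 with lists of equal length and to 114 where all 6 earlier peaks had to reach −log10 q of 5. It ranged from 262 to 673 as 1 library was left out, with 417 without the second 0h library, 347 without the second 6h library, 657 without the first 24h library and 673 without the second. The other 4 libraries left it within 1.5 times the count reported. The share of members within 1 kb of a gene end was 22.3% with the stricter q and 29.0% with a limit of 5 kb, and ranged from 15.9% to 27.2% as 1 library was left out. The median over members of their mean percentile was 39.9 and fell to 14.6 when ranked among regions called in all 8 libraries, and stayed between 36.1 and 43.7 as 1 library was left out. The number of listed genes with a member was 3 with lists of equal length and 3 within 50 kb, and ranged from 6 to 18 as 1 library was left out, with 12 without the second 0h, 11 without the first 6h and 18 without the second 24h library. Other causes of these moves were not tested. Leaving out a library for the percentile and the listed genes, and searching 300 bases of promoters for the GC box (12.8% both ways), were chosen after seeing the data.

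Differences between the replicates of a time correlated from -0.035 to 0.0080 between times, over the 9168 regions called in all 8 libraries. The labels do not say whether libraries of 1 number belong together. These correlations cannot settle it, since paired libraries need not differ alike at such regions. With the replicate number as a block, so that libraries of 1 number were used alone, 1971 and 1160 regions met the rule for numbers 1 and 2, of which 24.1% and 21.6% were near a gene end, and 46 and 20 listed genes had one. The planned search of motifs in the regions' own sequence was not run, because no genome was used here.

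Absence of a peak at 24h says that a site was under the authors' limit in 2 libraries, not that it was closed.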
